A study of Mus musculus with 8 samples.

Results

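Conjugating enzymes, carboxylesterases and flavin monooxygenases were examined in the renal cortex of young and aged mice. The group was chosen by gene symbol and holds 70 of the 22609 genes in the count tables: 21 UDP-glycosyltransferases (Ugt), 18 sulfotransferases (Sult), 18 carboxylesterases (Ces), 7 flavin monooxygenases (Fmo) and 6 genes whose symbols start with Nat, which are N-acetyltransferases. RNA was sequenced from kidney cortex of 4 aged mice (30 months by the sample labels, while the study's methods give a slightly higher mean age) and 4 young mice (about 5 months), with 1 library per mouse. All 8 mice were untreated C57BL6 males, so the groups differed in age alone as far as the labels go. Each library came from whole cortex, in which fewer cells of a type and less RNA per cell cannot be told apart.

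These enzymes make foreign compounds, steroids and other lipophilic molecules easier to excrete. Ugt enzymes transfer a sugar, usually glucuronic acid, Sult enzymes transfer sulfate, arylamine N-acetyltransferases transfer an acetyl group, carboxylesterases cleave esters and flavin monooxygenases oxidize nitrogen and sulfur atoms. In the kidney the proximal tubule, which takes up organic compounds from blood and filtrate, is a main site of such reactions. Several genes in the group have other roles: Ugt8a makes galactosylceramide, Nat6 (also called Naa80) acetylates actin, Nat8 completes mercapturic acids by acetylating cysteine conjugates, and Nat8l makes N-acetylaspartate.

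Depth lay between 14820804 and 19821429 read pairs counted on genes per library. At that depth 3 counts equal 0.151 to 0.202 CPM (counts-per-million) by library size only. CPM values of genes were scaled by edgeR's TMM method unless another scaling is named. Aged mouse 1 stood apart, at -71.5 on the first principal component (48.1% of the variance), while the other aged mice lay between -16.3 and 2.26 and the young mice between 21.6 and 26.2. Markers of the first proximal tubule segments (S1 and S2, 14 genes) summed to 14041 CPM in aged mouse 1, 25566 to 28649 CPM in the other aged mice and 25038 to 30097 CPM in young mice. Markers of its last segment (S3, 10 genes) summed to 5084 to 9738 CPM in aged and 10406 to 12730 CPM in young mice, so the groups did not overlap. Androgen-responsive kidney genes (10 genes) summed to 3312, 7896, 7483 and 21292 CPM in aged mice 1 to 4 and to 25406 to 32768 CPM in young mice. Most of each sum was Kap, except in aged mouse 1. Adipose markers (6 genes) summed to 462, 138, 37.7 and 76.8 CPM in aged mice 1 to 4 and to 25.2 to 61.6 CPM in young mice. Liver markers (9 genes, most of the sum being Apob) summed to 1083 to 2589 CPM in aged and 779 to 1080 CPM in young mice. Of the 7 liver markers tested edgeR called 3 higher (Alb, Apob and Fgb) and 1 lower (Ttr, log2 fold change -2.02, adjusted p = 0.0390). It called 2.06% of all genes. Adrenal cortex markers (8 genes) summed to 2.67 to 4.17 CPM in aged and 1.90 to 2.38 CPM in young mice, low sums that did not overlap. Only Star was tested, and edgeR did not call it (log2 fold change 0.45, adjusted p = 0.411). Cyp11b1, Cyp21a1 and Nr5a1 had 0 counts in all 8 libraries.

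Of the 70 genes, 37 had at least 10 counts in 4 or more libraries (15 Ugt, 6 Sult, 8 Ces, 4 Fmo and 4 Nat), and all 37 were also among the 13944 genes tested. A further 13 had 0 counts in all 8 libraries, which at these depths allows up to 0.202 CPM by library size only: Ces5a, Fmo6, Fmo9, Nat3, Sult1c1, Sult2a1, Sult2a2, Sult2a5, Sult2a6, Sult2a7, Sult3a1, Ugt2a1 and Ugt2a2. The remaining 20 had too few counts, among them Ces1a, Ces1b, Ces1c, Ces2a, Ces2d-ps, Ces2f, Ces3a, Ces3b, Ces4a, Sult1e1, Sult2a4, Sult2b1, Sult4a1, Sult6b1, Ugt2b1, Ugt2b35 and Ugt2b36. Just below the limit was Nat8l, which had 46, 30, 8 and 23 counts in aged mice 1 to 4 and 4, 5, 1 and 7 counts in young mice 1 to 4. Just inside it was Sult2a3, with 10 or more counts in 5 libraries and 0.295 to 1.39 CPM. Nat1 reached 10 counts in 4 aged but 2 young libraries, and Ces2b in 4 young but 3 aged libraries. These 2 genes therefore qualified mainly through the group in which they were higher. The other gene below the limit, Ugt1a9, is described with its locus.

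Ugt1a2, Ugt1a1 and Fmo4 were higher and Ces2c was lower in aged mice. These 4 of the 37 genes (10.8%) passed an adjusted p below 0.05 (edgeR quasi-likelihood, adjusted over the 13944 genes) and a fold change above 1.5, a combination met by 2.06% of all genes tested (1.17% higher and 0.889% lower). The adjusted p alone gave the same 4 genes, and 2.95% of all genes. At an unadjusted p below 0.05 there were 18 of 37, 8 of them higher and 10 lower in aged mice, against 25.5% of all genes. Log2 fold changes (aged against young) were above 0 for 22 and below 0 for 15 of the 37 genes, with a median of 0.15, and 54.1% of all genes were above 0. CPM of the aged and young mice did not overlap for 10 of the 37 (27.03%), 5 in each direction, and 18.9% of all genes had groups without overlap (8.85% higher in aged mice). The number of calls moved with the mouse left out, among these genes and over all genes. All 4 were kept without aged mouse 1 (8 called, and 444 of all genes) and without aged mouse 4 (12 called, and 733 of all genes). Only Fmo4 was kept without aged mouse 3 (115 of all genes called). None was kept without aged mouse 2 (119 of all genes) or without any 1 of the 4 young mice (8 to 35 of all genes). In the fits that kept none, edgeR still placed 15 to 16 of the 37 at an unadjusted p below 0.05. With 1 mouse left out the log2 fold changes ranged from 4.46 to 5.59 (Ugt1a2), 2.48 to 3.55 (Ugt1a1), 0.67 to 0.97 (Fmo4) and -1.01 to -0.72 (Ces2c).

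**Figure D1:**
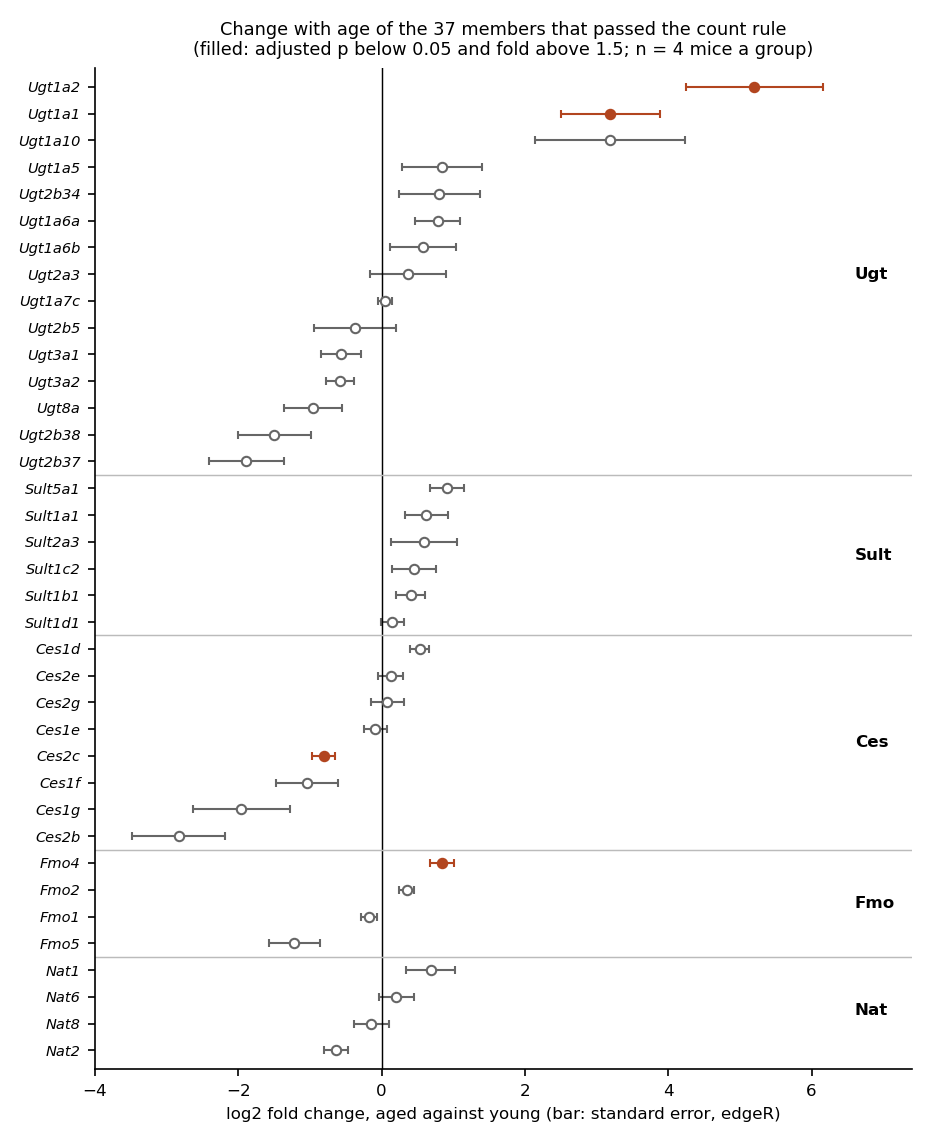
Log2 fold change, aged against young (x axis), of the 37 genes that had enough counts, grouped by family, with the standard error of the edgeR fit as a bar (n = 4 mice per group). The 4 filled points are Ugt1a2 (5.20), Ugt1a1 (3.19), Fmo4 (0.84) and Ces2c (-0.81), the genes past both thresholds.

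The Ugt1a genes share one locus on chromosome 1. Each has its own promoter and first exon, which encodes the part that binds the substrate, and all splice to the same downstream exons. Shared sequence made up 48.8% to 78.3% of the exon bases of the 8 Ugt1a genes in the tables, and reads that fall wholly in it cannot be assigned to 1 gene. Promoters are shown for the 2 Ugt1a genes called higher (Ugt1a1 and Ugt1a2), for Ugt1a10 and for the most abundant one (Ugt1a7c). The fold of Ugt1a10 was close to that of Ugt1a1. The starts shown are annotated ones, and which starts these mice used was not tested. The promoters run from 250 bases before to 50 bases after the RefSeq start (from GRCm38.p6, found without mismatch in mm9, whose coordinates are given). Capitals mark the 50 bases from the RefSeq start onwards.
Ugt1a1, chr1:90108284-90108583, + strand: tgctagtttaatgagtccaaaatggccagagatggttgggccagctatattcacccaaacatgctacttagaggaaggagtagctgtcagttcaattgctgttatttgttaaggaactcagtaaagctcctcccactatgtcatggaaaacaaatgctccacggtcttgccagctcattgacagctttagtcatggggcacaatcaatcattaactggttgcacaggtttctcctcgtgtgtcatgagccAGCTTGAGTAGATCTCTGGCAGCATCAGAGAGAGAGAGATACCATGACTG
Ugt1a2, chr1:90096936-90097235, + strand: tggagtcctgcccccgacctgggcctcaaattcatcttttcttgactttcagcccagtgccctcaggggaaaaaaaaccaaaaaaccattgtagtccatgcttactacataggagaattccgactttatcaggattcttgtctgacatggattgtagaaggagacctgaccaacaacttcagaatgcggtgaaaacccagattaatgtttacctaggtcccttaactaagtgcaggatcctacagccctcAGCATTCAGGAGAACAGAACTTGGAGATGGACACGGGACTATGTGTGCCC
Ugt1a10, chr1:89951736-89952035, + strand: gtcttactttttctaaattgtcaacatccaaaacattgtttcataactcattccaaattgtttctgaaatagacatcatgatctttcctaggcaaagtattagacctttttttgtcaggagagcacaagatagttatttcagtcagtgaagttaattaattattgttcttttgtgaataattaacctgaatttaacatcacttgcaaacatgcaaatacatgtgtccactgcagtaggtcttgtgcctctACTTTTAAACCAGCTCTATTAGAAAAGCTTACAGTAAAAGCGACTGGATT
Ugt1a7c, chr1:89991326-89991625, + strand: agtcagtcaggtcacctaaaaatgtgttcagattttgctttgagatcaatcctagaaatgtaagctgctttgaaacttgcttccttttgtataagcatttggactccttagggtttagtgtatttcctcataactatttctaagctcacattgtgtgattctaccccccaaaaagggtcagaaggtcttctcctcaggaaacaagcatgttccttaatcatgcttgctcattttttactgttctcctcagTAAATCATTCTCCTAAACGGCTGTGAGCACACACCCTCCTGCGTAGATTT

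The 4 starts lie apart along the locus, and a promoter was listed for 52 of the 70 genes. On either strand, the core of the aryl hydrocarbon receptor site (GCGTG) was in 4 of the 52 (7.69%), among them Ugt1a5, Ugt8a and Sult1d1, and in 32.5% of 27025 promoters of the same length. TATAAA, searched in the same way, was in 11 of the 52 (21.2%), among them Ces1g, Fmo5, Sult1d1 and Ugt3a1, and in 14.2% of all. The other letters given here and searched on both strands (TGACNNNGC of Nrf2, CACGTG of E-box factors, the steroid receptor palindrome and the DR1 repeat of nuclear receptors) were in none of the 52 windows and in 12.5%, 7.24%, 0.0037% and 0.0444% of all. A match of letters is a description of the window and was not taken as a binding site.

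Ugt1a2 (chr1:90097176-90115572, + strand, mm9) was at 148, 74.5, 43.1 and 3.81 CPM in aged mice 1 to 4 and at 1.48, 2.54, 1.84 and 1.42 CPM in young mice 1 to 4. Every aged mouse was above every young mouse, but the aged mice spanned 38.9-fold from lowest to highest and aged mouse 4 was close to the young level. Its log2 fold change was 5.20 (SE 0.95, adjusted p = 0.0361), the mean being 37.1 times the young mean. The value was 4.46 without aged mouse 1 and 3.95 with limma-voom. Ugt1a1, the bilirubin glucuronosyltransferase (chr1:90108534-90115572, + strand, mm9), was at 21.4, 10.6, 6.2 and 1.58 CPM in aged mice 1 to 4 and at 0.986, 1.48, 0.952 and 0.886 CPM in young mice 1 to 4. Aged mouse 1 was again the highest and aged mouse 4 the lowest of the aged mice, and none overlapped the young. Here the log2 fold change was 3.19 (SE 0.69, adjusted p = 0.0477), and it was 2.48 without aged mouse 1 and 2.33 with limma-voom. In aged mice 1 to 4 adipose markers were at 462, 138, 37.7 and 76.8 CPM, and S1 and S2 markers were lowest in mouse 1, and their part in these differences was not tested. The call of Ugt1a2 was lost with limma-voom (adjusted p = 0.0703), and that of Ugt1a1 with robust fitting.

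Ugt1a10 was at 40.3, 9.04, 0.855 and 2.51 CPM in aged mice 1 to 4 and at 1.79, 1.53, 1.63 and 0.827 CPM in young mice 1 to 4. Aged mice 1 and 2 were above all young mice, aged mouse 3 was among them, and the log2 fold change of 3.19 (SE 1.05) did not pass (adjusted p = 0.109) and was 1.49 without aged mouse 1 and 1.18 with limma-voom. Ugt1a9 had 105 counts in aged mouse 1 and at most 2 in each other library. Ugt1a6a, which conjugates small phenols, reached 22.6 CPM in aged mouse 1, 8.34 to 12.03 CPM in the other aged mice and 6.497 to 8.99 CPM in young mice (log2 fold change 0.78, adjusted p = 0.161). Ugt1a5 and Ugt1a6b also had their highest value in aged mouse 1 (11.5 and 21.3 CPM) and did not pass (adjusted p = 0.360 and 0.444).

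Ugt1a7c, the most abundant gene of the locus, was at 290, 322, 316 and 342 CPM in aged mice 1 to 4 and at 289, 351, 290 and 297 CPM in young mice 1 to 4. Its groups overlapped throughout (log2 fold change 0.05, SE 0.10, adjusted p = 0.768). The makeup of the locus therefore differed between mice. Ugt1a7c gave 51.7%, 73.7%, 82.4% and 93.0% of the Ugt1a counts in aged mice 1 to 4 and 92.3% to 94.6% in young mice. Ugt1a2 gave 26.5%, 17.1%, 11.2% and 1.04% in aged mice 1 to 4 and 0.452% to 0.668% in young mice. The 7 other Ugt1a genes summed to 5511, 1768, 1264 and 475 counts in aged mice 1 to 4 and to 285 to 556 counts in young mice. In the GENCODE annotation of mm9 the last exon of Ugt1a7c runs further than that of most other genes of the locus, so its count may hold reads from their common end, which was not tested.

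**Figure D2:**
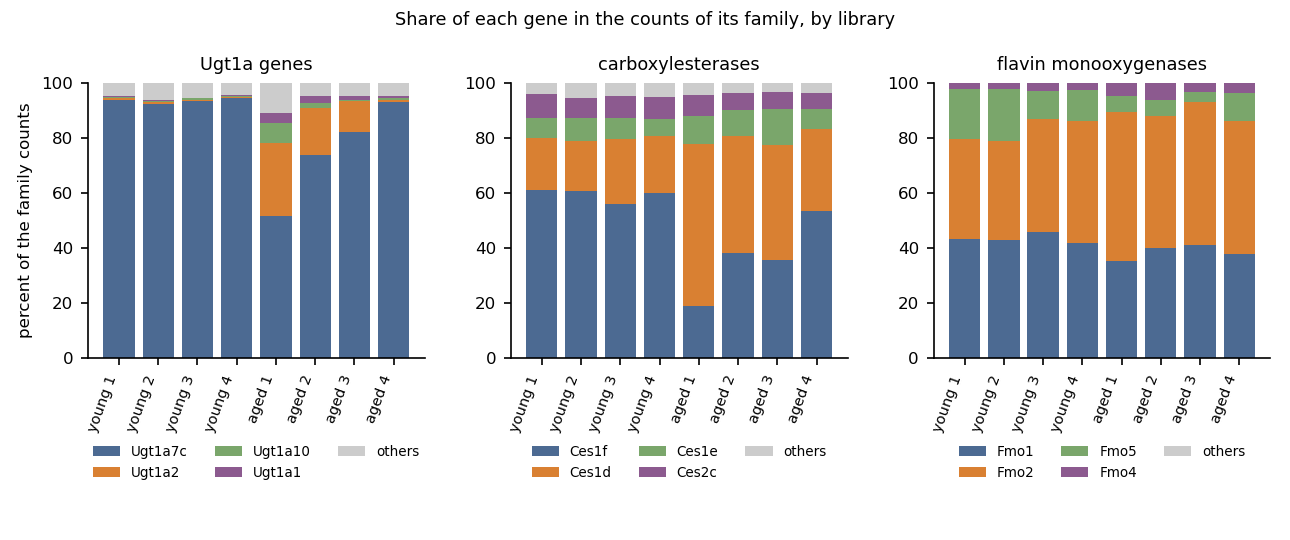
Percent by gene of the counts of the Ugt1a locus (left), the carboxylesterases (middle) and the flavin monooxygenases (right) in the 8 libraries (x axis, 1 bar per mouse). Shown are their most abundant or called genes and, at the locus, Ugt1a10, with the remaining genes together. Ugt1a7c made up 92.3% or more of the locus in each young mouse and 51.7% in aged mouse 1, Ces1f made up 56.1% or more of the carboxylesterases in each young mouse and 19.0% in aged mouse 1, and the bar of aged mouse 4 resembled the young bars at the Ugt1a locus.

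Of the 8 Ugt genes with enough counts outside this locus, 6 had log2 fold changes below 0. None passed in edgeR and 4 had an unadjusted p below 0.05, against 2.06% and 25.5% of all genes. DESeq2 called Ugt2b37 and Ugt3a2 lower, and limma-voom called Ugt2b37 and Ugt2b38 lower. Ugt2b38 and Ugt2b37 belong to the Ugt2b enzymes, which conjugate steroids among other compounds. Ugt2b38 was at 61.5, 270, 256 and 568 CPM in aged mice 1 to 4 and at 761, 896, 850 and 756 CPM in young mice 1 to 4. Ugt2b37 was at 4.67, 43.5, 26.5 and 29.3 CPM in aged mice 1 to 4 and at 110, 129, 72.9 and 71.6 CPM in young mice 1 to 4. Both had groups without overlap, with aged mouse 1 the lowest, and large errors (log2 fold change -1.499, SE 0.51, adjusted p = 0.119, and -1.89, SE 0.53, adjusted p = 0.0797). Near-identical copies elsewhere in mm9 covered 39.8% of the 100-base windows of Ugt2b38 and 2.90% of those of Ugt2b37, so the count of the first is uncertain. The sum of androgen-responsive genes was also lowest in aged mouse 1 (3312 CPM) and highest among aged mice in mouse 4 (21292 CPM). Whether androgen response bears on these Ugt2b genes was not tested.

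Ugt3a2, whose human counterpart uses sugars other than glucuronic acid, was the most abundant Ugt gene per length of exon. It was at 593, 997, 893 and 1232 CPM in aged mice 1 to 4 and at 1363, 1335, 1342 and 1518 CPM in young mice 1 to 4. Every aged mouse was below every young mouse (log2 fold change -0.58, SE 0.20, adjusted p = 0.120). Its neighbor Ugt3a1 was at 64.9 to 187 CPM in aged and 154 to 221 CPM in young mice (log2 fold change -0.57, adjusted p = 0.230), and copies covered 46.0% of its windows. Ugt8a was at 42.5, 98.6, 92.5 and 208 CPM in aged mice 1 to 4 and at 240, 263, 202 and 156 CPM in young mice 1 to 4 (log2 fold change -0.96, adjusted p = 0.179). For Ugt8a only aged mouse 4 reached the young range. Ugt2b34 (0.80), Ugt2a3 (0.37) and Ugt2b5 (-0.38) had log2 fold changes with adjusted p of 0.386, 0.688 and 0.699. Summed over all 21 Ugt genes, CPM was 1351, 2049, 1797 and 2607 in aged mice 1 to 4 and 2977 to 3188 in young mice, or 1951 ± 524 and 3051 ± 96.2 (mean ± SD, n = 4 each). The 2 groups of sums did not overlap, and Ugt3a2 was the largest part of each (41.9% to 49.9% of Ugt counts in every mouse).

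The carboxylesterases held 1 gene past both thresholds of 8 with enough counts (5 of 8 at an unadjusted p below 0.05, 1 of them higher). Of all genes 2.06% passed both thresholds and 25.5% had an unadjusted p below 0.05. Ces2c, a hydrolase of the liver and gut type (chr8:107370968-107378383, + strand, mm9), was at 53.7, 56.1, 49.6 and 85.5 CPM in aged mice 1 to 4 and at 107, 99.3, 107 and 115 CPM in young mice 1 to 4. All aged mice were below all young mice, with aged mouse 4 nearest (log2 fold change -0.81, SE 0.16, adjusted p = 0.0403). Near-identical copies covered 35.1% of its windows, which makes this count uncertain. Ces2b, a relative from the same cluster, was at 0.393, 1.04, 0.855 and 4.74 CPM in aged mice 1 to 4 and at 11.2, 7.25, 15.03 and 16.8 CPM in young mice 1 to 4. Its groups did not overlap, and its log2 fold change of -2.83 (SE 0.65) missed the threshold (adjusted p = 0.0530), which it passed at -4.06 without aged mouse 4. Ces2e and Ces2g, at 13.1 to 23.3 and 3.84 to 7.48 CPM over all mice, had log2 fold changes of 0.13 and 0.08 (adjusted p = 0.674 and 0.853).

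Ces1f and Ces1d, lipid hydrolases of the Ces1 group, were the most abundant carboxylesterases and their levels differed in opposite directions. Ces1f was at 135, 335, 301 and 796 CPM in aged mice 1 to 4 and at 740, 862, 768 and 861 CPM in young mice 1 to 4. Aged mice 1 to 3 were below the young range and aged mouse 4 was inside it (log2 fold change -1.04, SE 0.44, adjusted p = 0.176), and without that mouse the gene passed at -1.65. Ces1d was at 417, 372, 355 and 439 CPM in aged mice 1 to 4 and at 226, 253, 325 and 294 CPM in young mice 1 to 4. Every aged mouse was above every young mouse, but the fold was under 1.5 and the gene did not pass (log2 fold change 0.53, SE 0.13, adjusted p = 0.0615). Ces1f made up 19.0%, 38.2%, 35.6% and 53.6% of carboxylesterase counts in aged mice 1 to 4 and 56.1% to 61.2% in young mice, while Ces1d made up 58.8%, 42.5%, 42.0% and 29.6% and 17.9% to 23.7%. Ces1d is also known from liver and adipose tissue, whose markers are given above, and their part was not tested. Ces1g was at 1.92, 4.81, 3.63 and 19.2 CPM in aged mice 1 to 4 and at 14.5, 51.0, 20.2 and 29.1 CPM in young mice 1 to 4 (log2 fold change -1.96, adjusted p = 0.123). Ces1e was at 73.8 to 111 CPM in aged and 86.7 to 121 CPM in young mice (log2 fold change -0.09, adjusted p = 0.750), and its sign turned with scaling by library size only (0.02).

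Fmo4 was the only flavin monooxygenase of 4 past both thresholds, which 2.06% of all genes passed. Fmo4 (chr1:164724014-164744103, - strand, mm9) was at 58.5, 79.7, 42.8 and 56.8 CPM in aged mice 1 to 4 and at 31.1, 31.4, 35.4 and 34.8 CPM in young mice 1 to 4. Its groups did not overlap, no windows had near-identical copies, and unlike Ugt1a2 and Ugt1a1 its highest value was in aged mouse 2 (log2 fold change 0.84, SE 0.17, adjusted p = 0.0401). Fmo5, which can insert oxygen next to a carbonyl group, was at 67.7, 74.3, 53.5 and 153 CPM in aged mice 1 to 4 and at 252, 273, 131 and 158 CPM in young mice 1 to 4. Here aged mouse 4 lay among the young values, and the log2 fold change of -1.22 (SE 0.36) did not pass (adjusted p = 0.0878). Fmo2, the main form in mammalian lung, was at 664, 620, 711 and 744 CPM in aged mice 1 to 4 and at 499, 516, 515 and 624 CPM in young mice 1 to 4 (log2 fold change 0.35, SE 0.11, adjusted p = 0.0991). Only young mouse 4 reached the aged values. Fmo1, a main form in mouse kidney, was at 431, 520, 565 and 587 CPM in aged mice 1 to 4 and at 600, 620, 576 and 591 CPM in young mice 1 to 4 (log2 fold change -0.18, SE 0.11, adjusted p = 0.317). The sum over the 7 Fmo genes was 1358 ± 137 CPM in aged and 1372 ± 80.4 CPM in young mice (mean ± SD, n = 4 each), a difference smaller than either SD. Within it Fmo2 made up 50.6% ± 3.05 in aged and 39.3% ± 4.10 in young mice, and Fmo5 6.28% ± 2.58 and 14.7% ± 4.501 (SD, n = 4 each).

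**Figure D3:**
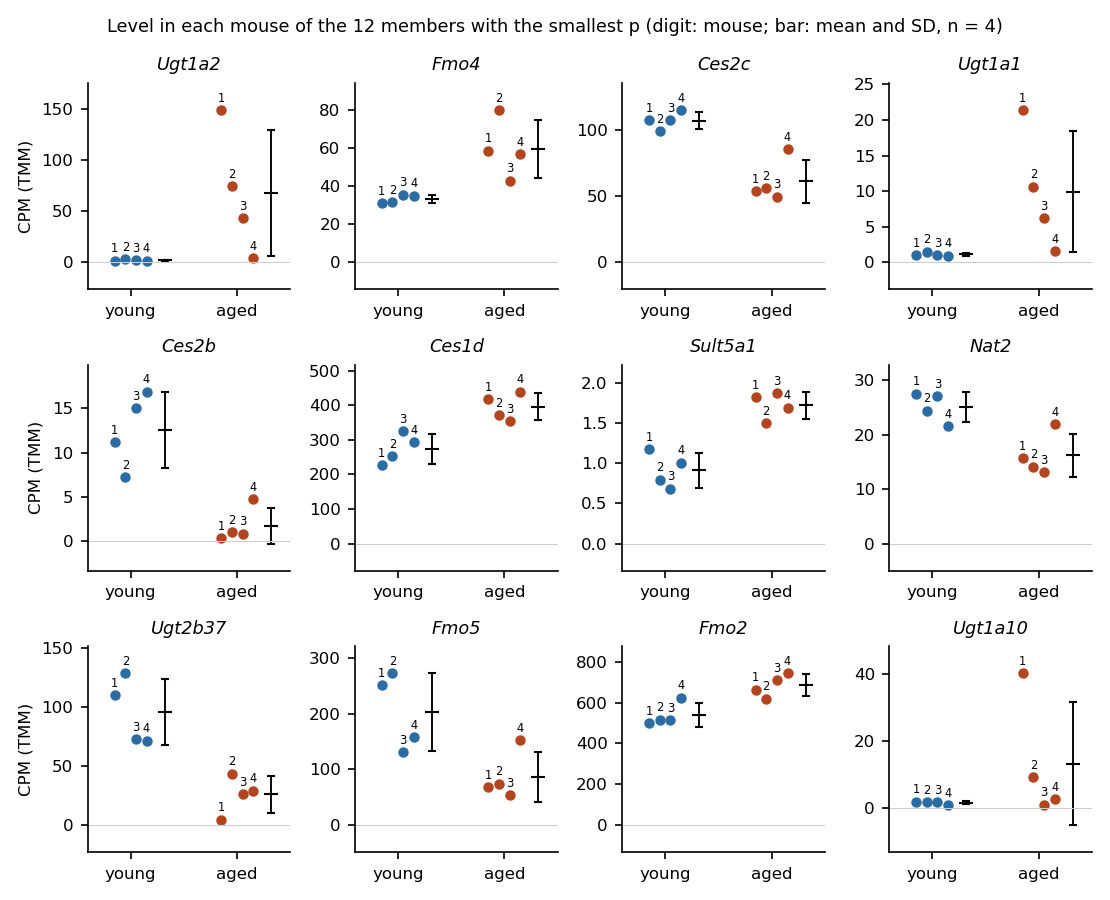
CPM (y axis, each panel with its own linear scale that includes 0) in each mouse for the 12 genes with the smallest p, with the mean and SD of 4 mice as a bar beside the points and the mouse number above each point. Ugt1a2 and Ugt1a1 were highest in aged mouse 1 and lowest of the aged mice in mouse 4, while Fmo4 and Ces2c separated the groups with less spread.

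None of the 6 sulfotransferases with enough counts passed in edgeR and 1 had an unadjusted p below 0.05, against 2.06% and 25.5% of all genes. DESeq2 called 1 of them, Sult5a1, and limma-voom called none. Their log2 fold changes were all above 0, from 0.15 to 0.91, and 54.1% of all genes were above 0. Sult1d1, which sulfates catecholamine-type amines, had the highest level per length of exon of all 70 genes and was at 1310, 1190, 858 and 887 CPM in aged mice 1 to 4 and at 1014, 831, 952 and 1043 CPM in young mice 1 to 4. The groups overlapped (log2 fold change 0.15, SE 0.16, adjusted p = 0.585). Sult1c2 was at 65.6, 225, 177 and 186 CPM in aged mice 1 to 4 and at 107, 118, 135 and 117 CPM in young mice 1 to 4. Aged mouse 1 was below and the other aged mice were above the young range (log2 fold change 0.46, SE 0.31, adjusted p = 0.369). Sult1a1, a phenol sulfotransferase, reached 30.9 CPM in aged mouse 1 and lay at 12.6 to 16.2 CPM in the other aged mice and 9.04 to 15.5 CPM in young mice (log2 fold change 0.62, adjusted p = 0.232). Sult5a1 was at 1.82, 1.496, 1.87 and 1.69 CPM in aged mice 1 to 4 and at 1.17, 0.793, 0.680 and 1.00 CPM in young mice 1 to 4. Its groups did not overlap, at a low level (log2 fold change 0.91, SE 0.23, adjusted p = 0.0669). Sult1b1 and Sult2a3 had log2 fold changes of 0.41 and 0.60 (adjusted p = 0.239 and 0.432).

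None of the 4 Nat genes with enough counts passed in edgeR either and 1 had an unadjusted p below 0.05, against 2.06% and 25.5% of all genes. Nat2, the mouse counterpart of the human arylamine acetyltransferase NAT1, was that gene and was also called by DESeq2 and by limma-voom. Nat2 was at 15.7, 14.1, 13.1 and 22.0 CPM in aged mice 1 to 4 and at 27.6, 24.4, 27.1 and 21.6 CPM in young mice 1 to 4. Only aged mouse 4 reached the young range (log2 fold change -0.63, SE 0.17, adjusted p = 0.0706). Nat8 was at 98.5, 117, 128 and 234 CPM in aged mice 1 to 4 and at 144, 153, 167 and 176 CPM in young mice 1 to 4, with aged mice on both sides of the young range (log2 fold change -0.15, adjusted p = 0.727). Nat6 was at 50.2 CPM in aged mouse 1, 23.6 to 25.3 CPM in the other aged mice and 24.3 to 29.7 CPM in young mice (log2 fold change 0.20, adjusted p = 0.612). It shares 61.8% of its exon bases with overlapping genes, so its count is uncertain, and its direction turned without aged mouse 1 (-0.14). Nat1 was at 0.708 to 1.43 CPM in aged and 0.354 to 0.899 CPM in young mice (log2 fold change 0.68, adjusted p = 0.236).

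Per kb of exon not shared with another gene, the highest mean levels over all 8 mice were 411 CPM per kb for Sult1d1, 374 for Ugt3a2, 340 for Ugt1a7c and 292 for Ugt2b38. They were followed by Ces1f (183), Ces1d (142), Nat8 (136), Fmo1 (130) and Fmo2 (110). None of these 9 abundant genes passed both thresholds in edgeR (Ugt2b38, Ugt3a2, Ces1d, Ces1f and Fmo2 had an unadjusted p below 0.05), while DESeq2 called Ugt3a2 and limma-voom Ugt2b38. In edgeR 2.06% of all genes passed both thresholds and 25.5% had an unadjusted p below 0.05. Ugt1a2, Ces2c, Fmo4 and Ugt1a1, which passed both, had 38.5, 42.7, 15.5 and 6.03 CPM per kb.

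Aged mice differed more among themselves than young mice did. The SD of log2 (CPM + 0.5) was larger in aged mice for 29 of the 37 genes, as it was for 83.7% of all genes. Its median was 0.590 in aged and 0.231 in young mice over the 37 genes, and 1.01 and 0.331 over the 15 Ugt genes. Aged mouse 4 was the aged mouse nearest to the young mean for 18 of 37 genes (48.6%, against 33.4% of all genes), and aged mouse 1 the farthest for 22 of 37 (59.5%, against 51.9% of all genes). The median distance from the young mean was 0.988, 0.651, 0.491 and 0.340 on the log2 scale in aged mice 1 to 4 for these genes and 0.358, 0.201, 0.211 and 0.180 for all genes.

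**Figure D4:**
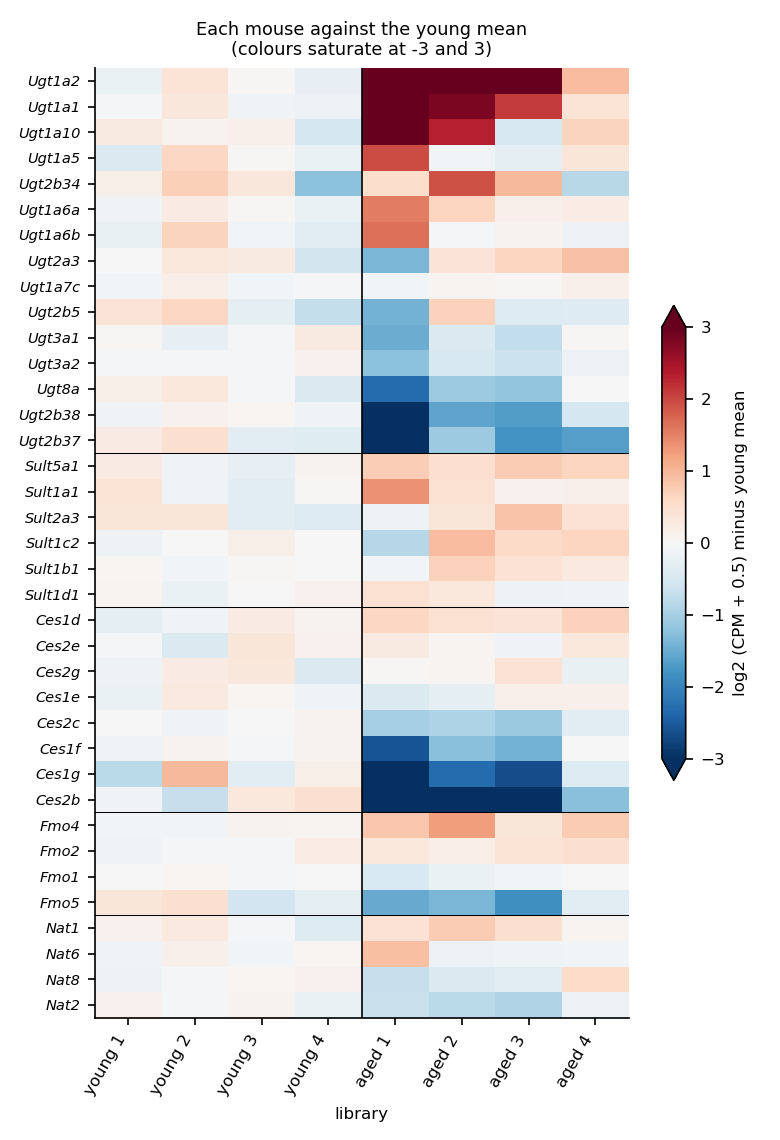
Log2 (CPM + 0.5) of each library minus the mean of the young mice (colour, saturating at -3 and 3) for the 37 genes (rows, by family) and 8 libraries (columns, young mice left of the line). Aged mouse 1 has the strongest colours and aged mouse 4 the palest of the aged mice, with median distances of 0.988 and 0.340.

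Genes around these enzymes were compared with the shares of all genes tested. Of all genes, edgeR called 2.06%, DESeq2 6.26% and limma-voom 3.46%, and 25.5% had an unadjusted p below 0.05 in edgeR. None of the 6 genes for glucuronide supply and hydrolysis was called by edgeR, DESeq2 or limma-voom, and 3 had an unadjusted p below 0.05 in edgeR. The smallest p values there were those of Gusb, the lysosomal glucuronidase (log2 fold change -0.57, adjusted p = 0.0934), and Slc35b1 (-0.32, adjusted p = 0.154). Of 13 genes for sulfate donor supply and hydrolysis none was called by any of the 3 tools and 2 had an unadjusted p below 0.05: Papss1, which makes the sulfate donor (-0.51, adjusted p = 0.0625), and the sulfatase Arsa (0.43, adjusted p = 0.0706). Among 12 other esterases and hydrolases edgeR called none (6 at an unadjusted p below 0.05), DESeq2 called 4 and limma-voom 2, and Bphl (-0.45, adjusted p = 0.0526) and Nceh1 (-0.62, adjusted p = 0.0732) had the smallest p.

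Of 22 other conjugating enzymes 1 was called lower and none higher (13 had an unadjusted p below 0.05, against 25.5% of all genes). That gene was Acsm3, an acyl-CoA synthetase also in the androgen-responsive list, at 77.5, 50.8, 49.2 and 316 CPM in aged mice 1 to 4 and 632 to 1083 CPM in young mice (log2 fold change -2.80, SE 0.62, adjusted p = 0.0491). Hnmt, which methylates histamine, had an adjusted p of 0.0357 with a fold under 1.5 (log2 fold change 0.45). DESeq2 called 6 of the 22 genes lower and limma-voom 5, while 6.26% and 3.46% of all genes were called in either direction. Among receptors of foreign compounds and sterols, Nr1h3, a sterol receptor, had an adjusted p of 0.0385 with a fold under 1.5 (log2 fold change -0.51). The xenobiotic sensors Nr1i2 and Ahr had log2 fold changes of 0.54 and 0.33 and did not pass (adjusted p = 0.220 and 0.199).

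**Figure D5:**
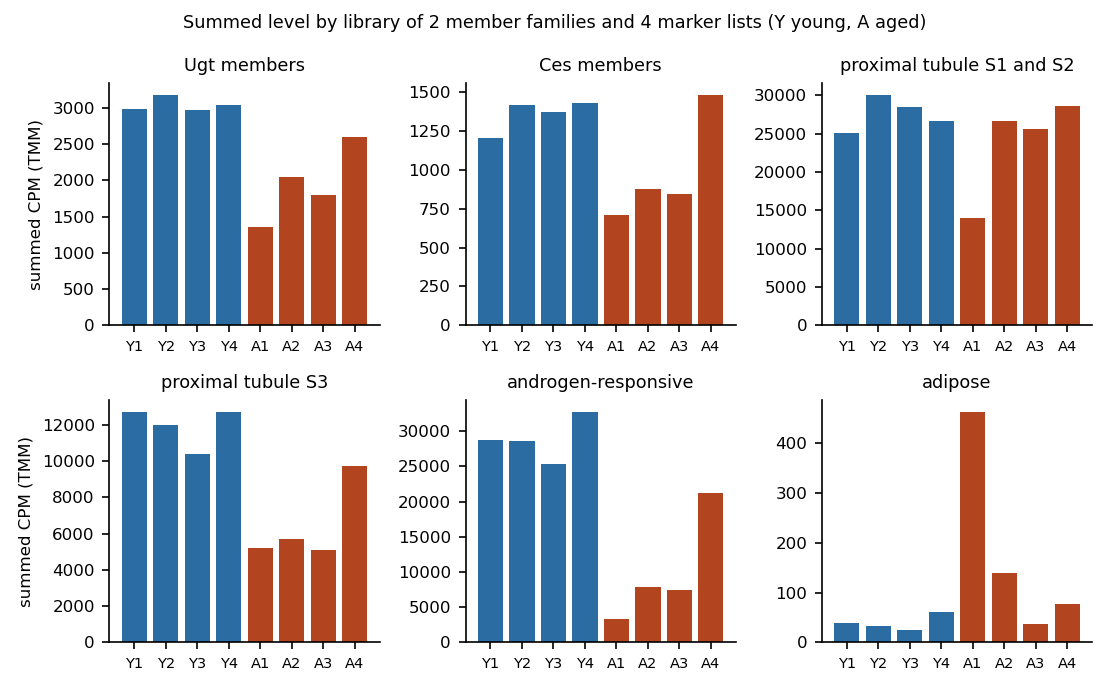
Summed CPM (y axis, from 0) in each library (Y1 to Y4 young, A1 to A4 aged) of the Ugt and Ces genes and of marker lists for proximal tubule S1 and S2, proximal tubule S3, androgen-responsive genes and adipose tissue. Ugt sums (1351 to 2607 in aged mice), S3 markers (5084 to 9738) and androgen-responsive genes (3312 to 21292) lay below the young values in all 4 aged mice, while the adipose sum was highest in aged mouse 1 (462).

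Sums of the families and of the marker lists differed between mice in related ways. The sums of Ugt genes, S3 markers and androgen-responsive genes were lower in all aged than in all young mice, and in each the value of aged mouse 4 was the nearest to the young. Of the S3 markers edgeR called none (8 of 10 at an unadjusted p below 0.05), DESeq2 called 5 lower and limma-voom 3. Of all genes, these tools called 2.06%, 6.26% and 3.46% in either direction, and 25.5% had an unadjusted p below 0.05 in edgeR. Of the androgen-responsive genes edgeR called 1 lower (8 of 10 at an unadjusted p below 0.05), DESeq2 3 and limma-voom 4. Kap, most of their sum outside aged mouse 1, was at 929 to 14296.5 CPM in aged and 18460 to 24978 CPM in young mice. Slco1a1, Acsm3 and Adh1 were also lower without overlap, while Odc1, Cyp4b1, Cyp2j13, Cyp2e1, Slc22a30 and Timd2 overlapped between the groups. Carboxylesterases summed to 710, 876, 846 and 1485 CPM in aged mice 1 to 4 and to 1208 to 1431 CPM in young mice, with aged mouse 4 above the young range. The sums of sulfotransferases (1251 ± 204 and 1096 ± 92.8 CPM) and of Nat genes (194 ± 59.6 and 213 ± 12.8 CPM) overlapped between aged and young mice (mean ± SD, n = 4 each). All 70 genes together summed to 5733 ± 937 CPM in aged and 7088 ± 192 CPM in young mice (mean ± SD, n = 4 each), with aged mouse 4 (7009 CPM) above the lowest young mouse (6924 CPM). What part cell makeup or androgen response has in these sums was not tested.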

How the data were processed

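RNA-Seq was performed on renal cortex of 4 aged and 4 young mice. The authors depleted ribosomal RNA, sequenced stranded paired ends, aligned them with TopHat2 to mm9 and used HTSeq-count with the strand of each RefSeq gene, and deposited the raw counts. Versions and the RefSeq release are not given in the sources used here. Pairs on no gene (20.0% to 29.9% per library), aligned to several places (34.3% to 39.1%) or ambiguous (0.231% to 0.346%) were left out, so genes with close copies may be undercounted. The table that joins the 8 libraries was left aside.

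Counts were scaled with TMM and tested with edgeR 4.0.16 (quasi-likelihood, filterByExpr with a minimum count of 10, no covariate) in R 4.3.3. Benjamini-Hochberg adjustment ran over 13944 genes. Calls required a fold above 1.5 together with an adjusted p under 0.05. SE is the log2 fold change divided by the square root of F. On simulated counts of 13856 genes with 200 changed, edgeR recovered 73% of 2-fold and 93% of 4-fold changes, and 7.26% of calls were false. The simulation capped the spread between mice, gave both groups the same spread and held no outlying mouse. In the data the aged mice spread more, so these rates may not hold there. No 2 libraries were duplicates (chi-square per gene at least 9.22). Depth, given in the report, limits precision, and the counting limit of 3 counts covers counting error only.

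Coordinates and shared exons came from the GENCODE annotation of mm9 (68 of 70 genes matched), copies from BLAST 2.17.0 (98% identity, 100-base windows), and promoters from RefSeq (52 of 70 matched, first listed start), with Python 3.11.15. Genes named are those with an adjusted p below 0.05, the 12 with the smallest p, the 3 highest per family by level per kb, those qualifying mainly through one group, and, from other pathway genes, those with an adjusted p below 0.05 and the 2 smallest p per list. Other genes were named to account for every member. The group, its lists and tests were chosen with earlier results of these data known. Alternatives were other scalings, DESeq2 1.42.0, limma-voom (limma 3.58.1) with quality weights, robust fitting, other filters, no fold minimum, the replicate number as a block and each mouse left out. Some genes and promoter letters of the lists searched are not reported here.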

Additional observations from a re-analysis of the deposited data

Results flagged for a closer look

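In 7 of 56 groups of 4 mice (the named genes and the sums, each in young and in aged mice) 1 mouse lay far from the other 3, its gap taking up most of the group's range. Chance alone gives about 1 in 20 among independent groups with a normal spread. The sums hold the named genes, so these groups were not independent, and whether 7 exceeds chance was not tested. Nat6 was highest in aged mouse 1, at 50.2 CPM against 23.6 to 25.3 CPM in the other aged mice (gap 0.935 of the range). The sum of the Nat genes was highest in aged mouse 4, at 283 CPM against 159 to 168 CPM (0.927). Ces2b was highest in aged mouse 4, at 4.74 CPM against 0.393 to 1.04 CPM (0.851). Among young mice, mouse 2 was highest for Ugt1a7c, at 351 CPM against 289 to 297 CPM (0.873), and for Ugt1a1, at 1.48 CPM against 0.886 to 0.986 CPM (0.831). Young mouse 4 was highest for Fmo2, at 624 CPM against 499 to 516 CPM (0.867), and for Ugt3a2, at 1518 CPM against 1335 to 1363 CPM (0.845).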

How the results depend on the processing

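Of the 37 genes, 4 were called (3 higher, 1 lower). The same 4 were called with DESeq2 size factors, upper-quartile scaling, the 2 other filters and no fold minimum, and 3 of them (not Ugt1a1) with robust fitting. Scaling by library size only called 7 (5 higher, 2 lower) and shifted all genes upwards (median log2 fold change 0.14, against 0.03). DESeq2 called 11 (5 higher, 6 lower) and limma-voom 7 (2 higher, 5 lower). Over all genes, 287 were called by edgeR, 488 with library size only, 873 by DESeq2 and 483 by limma-voom. With each mouse left out the count ranged from 0 to 12 (0 to 4 higher, 0 to 9 lower), and over all genes from 8 to 733. It was 0 on leaving out aged mouse 2 or any young mouse, 1 for aged mouse 3, 8 for aged mouse 1 and 12 for aged mouse 4. The cause was not tested.

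The replicate number as a block called 3 genes (1 higher, Ugt1a2, and 2 lower, Ces2b and Ces2c) and 130 of all genes. Deviations of same-numbered mice from their group means had correlations of 0.206, 0.038, 0.199 and -0.0302. Mice with different numbers were not compared, so whether the numbers pair the mice was not tested.

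Among 23 named genes and 17 alternatives each, 334 values kept direction and side of the thresholds, 25 passed newly, 27 passed no longer and 5 turned sign. Nat6 (0.20) turned to -0.0447 with limma-voom and, with mice left out, ranged from -0.14 (aged mouse 1 left out) to 0.31. Ces1e (-0.09) turned to 0.0169 with library size only and, with mice left out, ranged from -0.18 to 0.0162 (young mouse 2 left out), and was also above 0 with aged mouse 1 left out (0.0119). The difference between summed Fmo CPM, -14.4 (aged minus young), ranged from -75.5 to 86.3, within the spread of the mice. Genes under 10 counts could not be compared at this depth.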
